A study of Homo sapiens with 17 samples.

Results

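The genes described here are the GADD45 family (GADD45A, GADD45B and GADD45G) and the BTG/TOB family (BTG1, BTG2, BTG3, TOB1 and TOB2), 8 genes of the 14538 in each deposited table, found in the tables by gene name. All 8 had a value in every comparison. GADD45 proteins are small acidic proteins of the cell's response to DNA damage and stress; they bind the kinase MAP3K4 upstream of p38 and JNK, the replication clamp PCNA, the cell cycle inhibitor p21 and the mitotic kinase CDK1. BTG and TOB proteins share a conserved domain through which they bind the deadenylases of the CCR4-NOT complex, which shorten poly(A) tails and so promote mRNA decay. Several members of both families are induced early after damage or stimulation, and raising their level slows the cell cycle.

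Total RNA was sequenced, after removal of ribosomal RNA, from HEK293T, a line of human embryonic kidney cells that carries the large T antigen of a polyomavirus. In the INTS1-AID line, both INTS1 alleles carry a miniAID degron tag, through which auxin directs the protein to degradation; INTS1 is a scaffold of Integrator, the complex that cleaves nascent RNA polymerase II transcripts. The 17 libraries were INTS1-AID cells with 500 µM auxin for 12 h (3) or 4 h (3), INTS1-AID cells of the 12 h (3) and 4 h (2) series without auxin, untreated INTS1-AID cells (3) and untreated Parental cells (3), whose genotype is labelled NA. No Parental cells with auxin were among the samples, so what auxin itself does and what losing INTS1 does cannot be told apart here. The labels neither name a clone nor give replicates as separate cultures; p-values then reflect only how far libraries of a group spread, which could be technical. The deposited tables also hold comparisons of new RNA by TT-seq, which captures RNA labelled during a short pulse, 4 h after loss of INTS1 or of INTS8, another Integrator subunit. The TT-seq libraries are not among the samples and were not analysed here.

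Values per library were available for the 6 untreated libraries, which held 26294938 to 39321998 reads in genes. Parental library 3 stood apart, with a median absolute deviation from the other libraries of its group of 0.29 on the log2 scale, against 0.06 to 0.18 for the other 5. All 7 genes of a HEK293 marker list were measured, with summed normalized counts of 3440 to 3633 in INTS1-AID and 3157 to 3567 in Parental libraries. NEFL was the largest part of the sum, and LHX1 was near the lower limit, with 5.53 to 8.2 in INTS1-AID and 3.44 to 13.5 in Parental libraries. Within that list NEFL was higher in INTS1-AID (1970 to 2000) than in Parental libraries (1420 to 1590), while EYA1 (163 to 190 in INTS1-AID, 475 to 624 in Parental) and PAX2 (13.1 to 25.8 in INTS1-AID, 31.9 to 67.5 in Parental) were lower. Of 5 blood markers and 5 fibroblast markers, 1 each was listed, HBB with 6.31 to 10.5 normalized counts in INTS1-AID and 7.88 to 14.0 in Parental libraries, and PDGFRA with 49.4 to 59.8 in INTS1-AID and 22.5 to 50.8 in Parental libraries. Of 4 colon markers, CDX2 and LGR5 were listed, with a sum of 1043 to 1119 in INTS1-AID and 1028 to 1235 in Parental libraries. CDX2 alone had 934 to 1010 in INTS1-AID and 884 to 1130 in Parental libraries, above every HEK293 marker but NEFL. The part of these markers in the results below was not tested. INTS1 mRNA, whose level is no measure of the protein, had, by the authors' deposited table, a log2 change of -0.16 with 12 h and -0.18 with 4 h of auxin (DESeq2 adjusted p = 0.278 and 0.0123).

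The 8 genes lie on 7 chromosomes and are compact. Their spans run from 1544 bases for GADD45G to 19295 for BTG3, against a median of 27942.5 over 12824 protein-coding genes of the table. The longest coding transcript of each GADD45 gene has 4 exons in GENCODE v29, those of BTG1, BTG2, TOB1 and TOB2 have 2, and that of BTG3 has 6. In the coordinates of the deposited table (hg38 by the submitters' processing notes), GADD45A spans chr1:67685201-67688334 on the plus strand, GADD45B chr19:2476127-2478257 (plus) and GADD45G chr9:89605012-89606555 (plus). BTG1 spans chr12:92140278-92145846 (minus), BTG2 chr1:203305519-203309602 (plus) and BTG3 chr21:17593653-17612947 (minus). TOB1 spans chr17:50862223-50866354 (minus) and TOB2 chr22:41433494-41446801 (minus). BTG1 overlaps the long noncoding gene LINC01619 on its own strand and an antisense gene, AC025164.1, and BTG3 overlaps the antisense gene BTG3-AS1. No source used here gives the strand setting of the counting, so reads of these overlaps are uncertain. Processed pseudogenes of TOB2, BTG1 and BTG3 exist in GENCODE v29, and how reads shared with them were counted is not given either.

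Promoters of 7 of the 8 genes were found in RefSeq's table (build GRCh38.p14), each reaching from 250 bases before the start to 50 bases after it. Shown here are those of the 3 genes with the largest changes in the auxin comparison at 4 h, read 5′ to 3′ on the gene's strand. Capitals mark matches, on either strand, to 4 short motifs. The CCAAT motif binds NF-Y and the TATAAA motif is a form of the TATA box. The palindrome CACGTG is an E-box. The core of CRE-like elements, TGACG, also lies inside the full CRE.
GADD45B, chr19:2475877-2476176, plus strand: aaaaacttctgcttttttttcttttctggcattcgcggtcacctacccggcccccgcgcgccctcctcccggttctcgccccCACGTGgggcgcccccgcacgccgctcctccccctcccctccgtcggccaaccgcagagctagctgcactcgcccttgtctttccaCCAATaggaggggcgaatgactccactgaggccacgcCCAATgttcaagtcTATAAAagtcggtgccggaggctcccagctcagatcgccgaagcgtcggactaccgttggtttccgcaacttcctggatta
GADD45G, chr9:89604762-89605061, plus strand: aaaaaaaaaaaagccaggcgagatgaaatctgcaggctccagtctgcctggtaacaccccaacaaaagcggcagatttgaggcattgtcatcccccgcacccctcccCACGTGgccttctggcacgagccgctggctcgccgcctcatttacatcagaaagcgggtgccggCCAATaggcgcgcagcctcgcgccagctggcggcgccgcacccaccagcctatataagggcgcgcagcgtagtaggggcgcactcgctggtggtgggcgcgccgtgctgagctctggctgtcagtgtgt
BTG2, chr1:203305269-203305568, plus strand: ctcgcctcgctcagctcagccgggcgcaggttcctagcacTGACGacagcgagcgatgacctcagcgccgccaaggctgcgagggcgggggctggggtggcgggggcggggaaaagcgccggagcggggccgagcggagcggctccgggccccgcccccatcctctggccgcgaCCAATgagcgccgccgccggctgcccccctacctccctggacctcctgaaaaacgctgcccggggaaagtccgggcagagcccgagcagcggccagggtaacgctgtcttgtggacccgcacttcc
With the first transcribed base as 0, CACGTG starts at -168 in GADD45B and at -143 in GADD45G, and CCAAT at -82 and -45 in GADD45B, -79 in GADD45G and -76 in BTG2. A TATAAA starts at -31 in GADD45B and at -33 in BTG1, whose promoter also holds TGACG, on the other strand, at -192 and -110. CCAAT was found in 5 of the 7 promoters and in 34.6% of all 35116 promoters of this length, TGACG in 3 and in 24.6%. TATAAA was found in 2 of the 7 and in 11.5% of all, CACGTG in 2 and in 7.26%. Other forms of the TATA box were not searched, and the GADD45G promoter shown holds tatataag, which TATAAA does not match. The full CRE TGACGTCA (1.85% of all) and the AP-1 element TGACTCA (4.95% of all) matched in 0 of the 7. The motif CCAAT overlapped none of the others in the promoters shown. These matches describe letters in these windows and show no binding.

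Before any auxin, the tagged line and its parent were compared, which shows how the tagged line itself differs. None of the 8 passed the test (limma, Benjamini-Hochberg FDR 0.05), against a background of 2.22% of 13293 tested genes, of which 1.85% were higher and 0.369% lower in INTS1-AID. An unadjusted p under 0.05 was found for 1 of the 8, GADD45B, against 17.4% of all tested genes; edgeR and DESeq2 on recovered reads also called 0.
GADD45B had 373, 383 and 370 normalized counts in INTS1-AID libraries 1, 2 and 3, against 276, 317 and 345 in Parental libraries 1, 2 and 3. Its groups did not overlap, as for 30.7% of all tested genes, and INTS1-AID lay higher. The means were 375 ± 6.89 in INTS1-AID and 313 ± 34.7 in Parental cells (SD, n = 3 each), a log2 change of 0.27 with an SE of 0.11 (limma adjusted p = 0.270). Without Parental replicate 3 the log2 change was 0.34 and passed (limma adjusted p = 0.0191).
GADD45A, the member first known from its induction by DNA damage, had 471, 516 and 451 normalized counts in INTS1-AID libraries and 497, 491 and 686 in Parental ones. The groups overlapped, and the highest value was that of Parental library 3. GADD45G was close to the lower limit of the measurement, with 8.68, 10.1 and 12.9 in INTS1-AID and 10.8, 14.6 and 7.88 in Parental libraries, which rest on 7 to 17 reads a library.
BTG2, an antiproliferative gene induced by DNA damage, had 596, 531 and 618 normalized counts in INTS1-AID libraries and 486, 548 and 524 in Parental ones. BTG1, its closest relative, had 1377, 1476 and 1536 in INTS1-AID libraries and 1424, 1425 and 1090 in Parental ones. Both pairs of groups overlapped, and the low BTG1 value was again that of Parental library 3.
BTG3 had 754, 760 and 821 normalized counts in INTS1-AID libraries and 813, 824 and 569 in Parental ones, with the lowest value in Parental library 3. TOB1 had 1032, 979 and 1041 in INTS1-AID libraries, against 1089, 946 and 909 in Parental ones. TOB2 had 1991, 1992 and 1871 in INTS1-AID libraries, against 2135, 1919 and 2413 in Parental ones. The groups of all of these overlapped. Over the 8 genes the log2 changes lay between -0.20 (GADD45A) and 0.27 (GADD45B), with 5 above 0, and their median was 0.08, against 0.0049 over all tested genes. Without Parental replicate 3 the median was -0.02 and 4 lay above 0: GADD45A had -0.04, BTG1 0.04, BTG3 -0.07, TOB1 0.0024, TOB2 -0.05 and GADD45G -0.25.

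**Figure D1:**
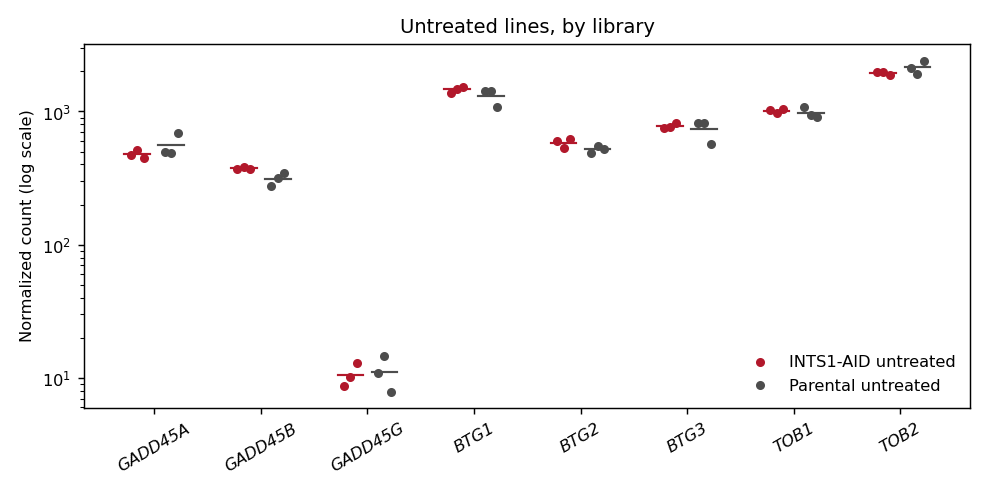
Normalized counts (log scale) of the 8 genes in each untreated library, with INTS1-AID left of Parental for each gene; points are libraries and bars are means (n = 3 each). The groups overlap for every gene but GADD45B, whose INTS1-AID libraries lie between 370 and 383 and whose Parental libraries lie between 276 and 345.

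Per length, the order of levels in untreated INTS1-AID cells was BTG3 (490 ± 23.5 normalized counts per kb of transcript, SD, n = 3), TOB1 (455 ± 14.9), TOB2 (450 ± 15.95), GADD45A (355 ± 24.7), BTG1 (316 ± 17.3), GADD45B (274 ± 5.02), BTG2 (213 ± 16.4) and GADD45G (9.90 ± 2.01). The ranges of mean ± SD overlapped for BTG3 and TOB1, for TOB1 and TOB2, and for GADD45A and BTG1. In Parental cells the 3 highest were TOB2 (497 ± 57.2 per kb, SD, n = 3), BTG3 (463 ± 90.7) and TOB1 (439 ± 42.5), whose ranges all overlapped, and the lowest was GADD45G (10.4 ± 3.18). The untreated cells thus held GADD45A and GADD45B at levels of a like order and GADD45G far below both.

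With 4 h of auxin, all 8 genes rose in total RNA by the authors' deposited table (DESeq2 adjusted p under 0.05), where 38.4% of 14479 genes passed in either direction, 19.2% higher and 19.2% lower. Their median log2 change was 1.47, against 0.0048 over all genes in the authors' deposited table. With a log2 change of at least 1 as well, 6 of the 8 passed, against 5.32% of all genes in the authors' deposited table. For these libraries the tables give a mean count, a fold change and a p-value, so no values per library can be shown; the levels below are the arm means that the deposited mean count and fold change imply, and the SE is the one that the p-value implies.
GADD45B, which binds MAP3K4 and is induced by stress, NF-κB and TGF-β signalling, had the largest rise by the authors' deposited table. Its implied mean in the authors' deposited table was 3389 normalized counts with auxin and 241 without, a 14.0-fold change (log2 change 3.81, p listed as 0, so an SE of at most 0.10). It ranked 47th of 14479 genes by log2 change in the authors' deposited table, and 18th of the 10937 with a mean count of at least 100.
GADD45G, the member linked to differentiation, followed with an implied mean of 92.1 normalized counts with auxin and 9.40 without in the authors' deposited table. Its log2 change was 3.29 with an SE of 0.44 (DESeq2 adjusted p = 1.30e-12), the widest error of the 8 in the authors' deposited table. GADD45A rose 2.86-fold in the authors' deposited table, with 962 normalized counts with auxin and 337 without (log2 change 1.52, SE 0.10, DESeq2 adjusted p = 5.67e-52).
BTG2 had the largest change of the BTG/TOB family in the authors' deposited table, with an implied 2157 normalized counts with auxin and 350 without (log2 change 2.62, SE 0.08, DESeq2 adjusted p = 1.15e-222). It ranked 191st of all genes in the authors' deposited table. BTG1 rose by a log2 change of 1.42 (SE 0.07), with 2483 normalized counts with auxin and 925 without in the authors' deposited table. LINC01619, which overlaps BTG1 on the same strand, had a log2 change of 1.74 at a mean count of 86 by the authors' deposited table (DESeq2 adjusted p = 7.23e-10).
TOB1 rose by a log2 change of 1.30 (SE 0.07), with 2046 normalized counts with auxin and 831 without in the authors' deposited table. TOB2, its paralogue, rose by 0.92 (SE 0.07), with 2248 with auxin and 1192 without in the authors' deposited table. BTG3, the gene with the longest span, had the smallest rise, 0.44 (SE 0.09, DESeq2 adjusted p = 3.05e-06), with 761 normalized counts with auxin and 560 without in the authors' deposited table. Bulk RNA cannot tell a rise in every cell from a larger rise in some of them.

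**Figure D2:**
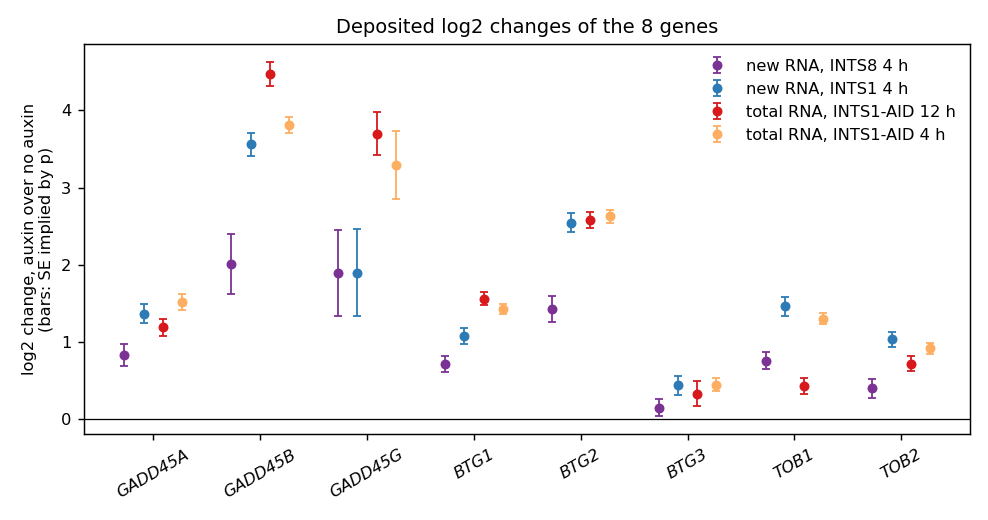
Deposited log2 changes, auxin over no auxin, of the 8 genes (y axis) in new RNA after INTS8 or INTS1 loss and in total RNA at 12 h and 4 h; bars are the SE that the deposited p-value implies. GADD45B lies between 2.01 and 4.47 and BTG3 between 0.14 and 0.44. All points lie above 0, with the 12 h, INTS1 and INTS8 ratios read as auxin over no auxin.

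With 12 h of auxin, 7 of the 8 genes rose and 0 fell by the authors' deposited table, where 44.2% of 14485 genes passed in either direction, 21.9% were higher and 22.3% lower. Their median log2 change was 1.37 (all genes 0.01), per the authors' deposited table, and 5 of the 8 also had a log2 change of at least 1, against 7.52% of all genes. BTG3 did not pass (log2 change 0.32, DESeq2 adjusted p = 0.0898, 387 normalized counts with auxin and 309 without), per the authors' deposited table. The implied arm means at 12 h assume 3 libraries an arm, as the labels give. A deposited log2 expression column, which matched an arm to within 0.0019 in each other comparison, matched neither arm at 12 h (median errors of at least 0.25 on the log2 scale), so the 12 h arm means and the shares built on them are unverified. With equal arms the error was 0.41 for the numerator and 0.95 for the denominator, which does not settle the direction. The 12 h direction, auxin over no auxin, was taken from the correlation with 4 h across 10700 genes (Pearson's r = 0.85). A shared direction at both times is therefore built in and is no result. Every statement on 12 h, here and in the other paragraphs, holds for that reading.
The 2 times were then compared through the difference of their deposited log2 changes, with a Wald z test adjusted over 14460 genes, of which 14.9% differed, 6.33% above 0 and 8.55% below. Of the 8 genes 2 differed, in opposite directions, and an unadjusted p under 0.05 was found for 3, against 26.1% of all genes. GADD45B changed more at 12 h, with a log2 change of 4.47 at 12 h and 3.81 at 4 h, per the authors' deposited table (difference 0.66, SE at most 0.19, Wald adjusted p = 0.00602). Its implied mean at 12 h was 6786 normalized counts with auxin and 306 without in the authors' deposited table.
TOB1 changed less at 12 h, with a log2 change of 0.43 at 12 h and 1.30 at 4 h, per the authors' deposited table (difference -0.87, SE 0.12, Wald adjusted p = 3.96e-10). At 12 h its implied mean was 1542 normalized counts with auxin and 1144 without in the authors' deposited table. Its rise at 12 h passed the test by the authors' deposited table (DESeq2 adjusted p = 0.000166).
For GADD45A the log2 change was 1.19 at 12 h and 1.52 at 4 h, per the authors' deposited table, and the difference of -0.33 (95% interval -0.62 to -0.04) did not pass after adjustment (Wald adjusted p = 0.117). BTG2 had 2.58 at 12 h and 2.62 at 4 h, per the authors' deposited table, with a difference of -0.04 (95% interval -0.31 to 0.22). BTG1 had 1.56 at 12 h and 1.42 at 4 h, per the authors' deposited table, with a difference of 0.14 (-0.09 to 0.36). TOB2 had 0.72 at 12 h and 0.92 at 4 h, per the authors' deposited table (difference -0.20, -0.43 to 0.03). For BTG3 the difference was -0.12 (-0.48 to 0.24).
GADD45G had 3.70 at 12 h and 3.29 at 4 h, per the authors' deposited table, and its difference of 0.41 had the widest interval, -0.62 to 1.43. Each time has its own libraries without auxin, and their implied levels differed between the series with an SD of 0.63 on the log2 scale over 4501 genes with mean counts of at least 1000. Time and series therefore cannot be told apart in these differences.

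Within each family the order of levels per length changed with auxin. In the authors' deposited table GADD45B made up an implied 87.3% of the summed GADD45 level per kb with auxin and 46.3% without at 12 h, and 75.6% with auxin and 40.6% without at 4 h. GADD45A, the more abundant of both without auxin, made up 9.90% with auxin and 51.2% without at 12 h, and 21.8% with auxin and 57.4% without at 4 h, per the authors' deposited table. GADD45G stayed between 2.03% and 2.77% of the sum at both times in the authors' deposited table. The summed GADD45 level was 11.8 times as high with auxin as without at 12 h and 7.54 times at 4 h, per the authors' deposited table.
In the BTG/TOB family the shift was smaller, with the summed level 2.11 times as high with auxin as without at 12 h and 2.44 times at 4 h, per the authors' deposited table. BTG2 had the lowest share of the 5 without auxin at 4 h, and made up 24.4% with auxin and 9.66% without at that time in the authors' deposited table. At 12 h its share was the largest with auxin, 32.3%, against 11.4% without in the authors' deposited table. The share of BTG3 was lower with auxin, with 7.41% with auxin and 12.5% without at 12 h, and 14.8% with auxin and 26.6% without at 4 h, per the authors' deposited table. These shares rest on arm means without a spread and are given as a description, with no test.

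**Figure D3:**
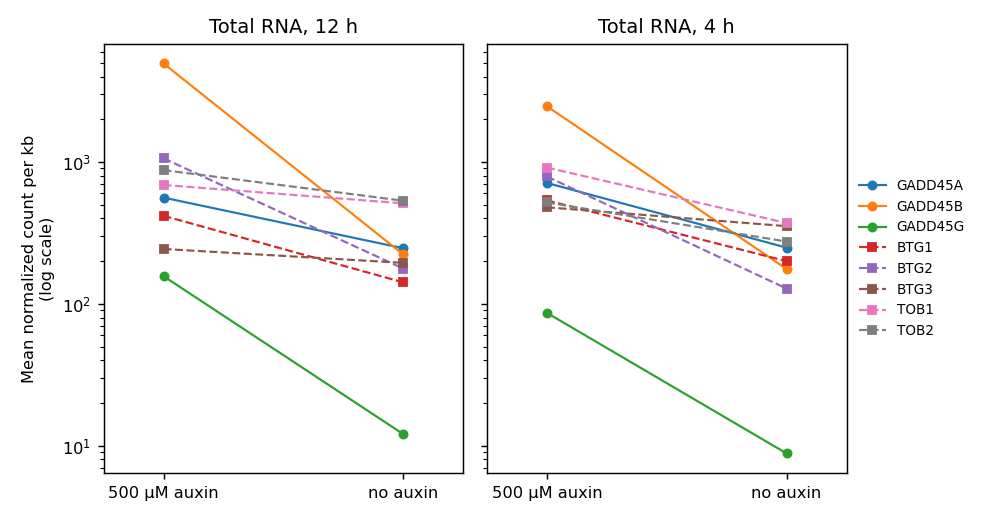
Mean normalized counts per kb of transcript (log scale) implied by the deposited mean count and fold change, with 500 µM auxin (left in each panel) and without it, at 12 h and at 4 h; solid lines are GADD45 genes and dashed lines BTG/TOB genes, with no error because only means are available. GADD45B crosses from below GADD45A without auxin to the top of all 8 with auxin, with 4950 per kb with auxin and 223 without at 12 h, and 2472 with auxin and 176 without at 4 h.

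New RNA, made during a short pulse, sets the size of the changes beside that in total RNA. Its direction with INTS1 loss, auxin over no auxin, was taken from the correlation with 4 h total RNA across 8590 genes (Pearson's r = 0.89). That is a reading of the columns, not a label, so a shared direction of new and total RNA is built in and is no result. Every statement on new RNA with INTS1 loss, here and in the other paragraphs, holds for that reading. In the authors' deposited table all 8 genes rose in new RNA after 4 h of INTS1 loss, where 24.1% of 13876 genes passed in either direction, with 13.3% higher and 10.7% lower. The median log2 change of the 8 was 1.41, against -0.0071 over all genes in the authors' deposited table, and 7 of the 8 had a log2 change of at least 1, against 4.5% of all genes.
GADD45B led again in the authors' deposited table, with an implied 1912 normalized counts with auxin and 162 without (log2 change 3.56, SE 0.15, DESeq2 adjusted p = 2.93e-119). BTG2 followed with 1137 with auxin and 195 without (log2 change 2.54, SE 0.13), per the authors' deposited table. TOB1 had 1690 with auxin and 614 without (log2 change 1.46, SE 0.12), and TOB2 1397 with auxin and 683 without (1.03, SE 0.10), per the authors' deposited table. GADD45A rose by a log2 change of 1.36 (SE 0.12), BTG1 by 1.07 (SE 0.10) and BTG3 by 0.43 (SE 0.12), per the authors' deposited table. GADD45G rested on a mean count of 15 in the authors' deposited table (log2 change 1.90, SE 0.56, DESeq2 adjusted p = 0.00490).
The difference of new RNA minus total RNA at 4 h passed for 0 of the 8 genes (Wald z test, 1.21% of 14417 genes differed, 0.52% above 0 and 0.694% below), and an unadjusted p under 0.05 was found for 1, against 10.1% of all genes. That gene was BTG1, with a log2 change of 1.07 in new RNA and 1.42 in total RNA in the authors' deposited table (difference -0.35, 95% interval -0.60 to -0.11, Wald adjusted p = 0.153). The other intervals were -0.61 to 0.11 for GADD45B, -0.37 to 0.21 for BTG2, -0.46 to 0.16 for GADD45A, -0.12 to 0.44 for TOB1, -0.12 to 0.35 for TOB2 and -0.30 to 0.28 for BTG3. For GADD45G, with 1.90 in new RNA and 3.29 in total RNA in the authors' deposited table, the interval of -2.79 to 0.00025 leaves a large difference undetectable at this depth. An interval that holds 0 does not show that new and total RNA changed alike.

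The INTS8 comparison sets the size of the changes in new RNA with a second Integrator subunit beside that with INTS1. After INTS8 loss 7 of the 8 genes rose and 0 fell by the authors' deposited table, where 9.43% of 13592 genes passed in either direction, with 6.56% higher and 2.87% lower. When at least 1 on the log2 scale was asked as well, 3 of the 8 passed, against 2.15% of all genes in the authors' deposited table. The direction, auxin over no auxin, was taken from the correlation with the INTS1 comparison across 8414 genes (Pearson's r = 0.88); it is a reading of the columns, not a label. A deposited log2 expression column matches the arm in the numerator of the INTS8 fold change and the arm in the denominator of the INTS1 and 4 h ones, and so does not settle it. The sign was chosen by likeness to INTS1, so a shared direction of INTS8 and INTS1 is built in and is no result. Every statement on INTS8, here and in the other paragraphs, holds for that reading.
BTG3 did not pass (log2 change 0.14, SE 0.11, DESeq2 adjusted p = 0.528), per the authors' deposited table. GADD45B had a log2 change of 2.01 with an SE of 0.39 (DESeq2 adjusted p = 1.11e-05), and GADD45G one of 1.89 with an SE of 0.56 at a mean count of 12 in the authors' deposited table. BTG2 had 1.42 (SE 0.17), GADD45A 0.83 (SE 0.14), TOB1 0.75 (SE 0.11), BTG1 0.72 (SE 0.10) and TOB2 0.40 (SE 0.13), per the authors' deposited table.
The difference of INTS8 minus INTS1 passed for 4 of the 8 genes, with the INTS8 ratio read as stated (Wald z test over 14394 genes, of which 0.806% differed, 0.229% above 0 and 0.577% below). It lay below 0 for all 8, but the share of all genes below 0 was not counted, and their median difference was 0.0021. Of all genes, 9.43% passed with INTS8 loss and 24.1% with INTS1 loss. Whether a smaller change with INTS8 loss is particular to these 8 was not tested. GADD45B had a log2 change of 2.01 with INTS8 loss and 3.56 with INTS1 loss in the authors' deposited table (difference -1.55, SE 0.42, Wald adjusted p = 0.0308). BTG2 had 1.42 with INTS8 loss and 2.54 with INTS1 loss in the authors' deposited table (difference -1.12, SE 0.21, Wald adjusted p = 0.000157).
TOB1 had 0.75 with INTS8 loss and 1.46 with INTS1 loss in the authors' deposited table (difference -0.71, SE 0.17, Wald adjusted p = 0.00594). TOB2 had 0.40 with INTS8 loss and 1.03 with INTS1 loss in the authors' deposited table (difference -0.64, SE 0.16, Wald adjusted p = 0.0132). For GADD45A, BTG1 and BTG3 the differences were -0.54, -0.35 and -0.29 and did not pass (Wald adjusted p = 0.211, 0.416 and 0.771), and for GADD45G the interval was -1.55 to 1.54. With the INTS8 ratio turned round, all 8 log2 changes would be negative, and all 8 differences would pass, between -5.58 (GADD45B) and -0.58 (BTG3), as would those of 4174 of 14394 genes. No source used here gives how far each protein was lost, so a weaker change with INTS8 loss cannot be told apart from a weaker loss of INTS8. It cannot be told apart from a difference between the libraries either.

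**Figure D4:**
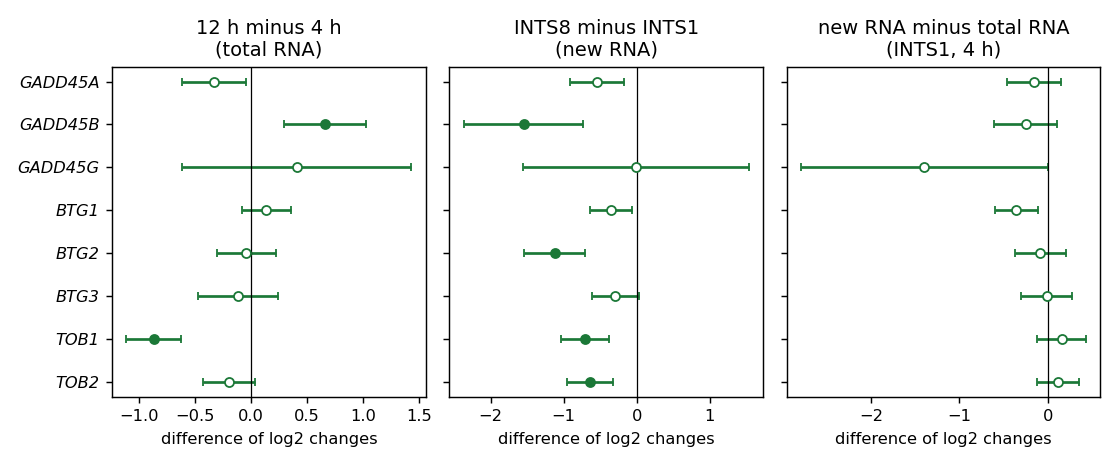
Differences of deposited log2 changes (x axis) for the 8 genes: 12 h minus 4 h in total RNA, INTS8 minus INTS1 in new RNA, and new RNA minus total RNA at 4 h; bars are 95% intervals, and filled points pass a Benjamini-Hochberg FDR of 0.05 over all genes. Filled points are GADD45B (0.66) and TOB1 (-0.87) for time, and GADD45B, BTG2, TOB1 and TOB2 (-1.55 to -0.64) for the subunit.

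Genes of proteins that these families act with, and known regulators of the 8, were counted as lists, beside the shares of all genes given above (21.9% higher and 22.3% lower at 12 h, 19.2% and 19.2% at 4 h, 6.56% and 2.87% with INTS8 loss, 13.3% and 10.7% with INTS1 loss). Of 12 partners of GADD45 proteins, 2 rose and 2 fell at 12 h, and 2 rose and 5 fell at 4 h, per the authors' deposited table. Their median log2 change was -0.0061 at 12 h and -0.05 at 4 h, per the authors' deposited table. CDKN1A, which encodes p21, was the highest of these by the authors' deposited table, with log2 changes of 3.44 at 12 h and 2.42 at 4 h (DESeq2 adjusted p = 8.78e-158 and 6.46e-180). CDK1 rose at 4 h (0.39) and the mitotic cyclin gene CCNB1 at 12 h (0.33), per the authors' deposited table. MAP3K4, the kinase that GADD45 proteins activate, fell by 0.47 at 12 h and by 0.51 at 4 h, and TET1, a DNA demethylase, fell by 0.49 at both times on the log2 scale, per the authors' deposited table. In new RNA of the authors' deposited table, CDKN1A had a log2 change of 1.202 with INTS8 loss and 2.09 with INTS1 loss. Of these 12 in the authors' deposited table, 1 rose and 1 fell (TDG, -0.39) with INTS8 loss, and 2 rose and 3 fell with INTS1 loss.
Of 19 partners of BTG and TOB proteins, most of them CCR4-NOT, PAN2-PAN3 and poly(A)-binding protein genes, 0 rose and 2 fell at 12 h, and 3 rose and 8 fell at 4 h, per the authors' deposited table. Their median log2 change was -0.12 at 12 h and -0.06 at 4 h, per the authors' deposited table. HOXB9, a homeobox partner of BTG1 and BTG2, fell by 0.49 and PRMT1, an arginine methyltransferase, by 0.31 at 12 h on the log2 scale, per the authors' deposited table. CNOT3 fell by 0.41 and CNOT2 by 0.40 at 4 h, whereas the deadenylase subunit gene PAN2 rose by 0.49 and CNOT6L by 0.19 on the log2 scale, per the authors' deposited table. In new RNA 1 rose and 1 fell with INTS8 loss, and 2 rose and 1 fell with INTS1 loss in the authors' deposited table. PAN2 had 0.55 with INTS8 loss and 0.59 with INTS1 loss, PRMT1 -0.53 and -0.52, and PABPC4 rose with INTS1 loss (0.29), per the authors' deposited table.
Of 10 known regulators of these genes, 1 rose and 3 fell at 12 h, and 3 rose and 4 fell at 4 h, per the authors' deposited table. EGR1, an immediate early transcription factor, rose in every comparison of the authors' deposited table, with log2 changes of 2.35 at 12 h and 1.63 at 4 h, at mean counts of 194 and 73. In new RNA of the authors' deposited table EGR1 had 1.16 with INTS8 loss and 2.60 with INTS1 loss. MDM2, a ubiquitin ligase, fell by 0.51 at 12 h and by 0.39 at 4 h, per the authors' deposited table. MYC rose by 0.28 at 4 h and RELA fell by 0.25, and NFKB1 fell by 0.45 at 12 h on the log2 scale, per the authors' deposited table. ATF4 fell in new RNA of the authors' deposited table, with log2 changes of -0.55 with INTS8 loss and -0.54 with INTS1 loss, and MYC rose with INTS1 loss (0.32). Before auxin, 1 gene of each list was higher in INTS1-AID than in Parental cells and 0 were lower, against 1.85% and 0.369% of all tested genes. These were CCNB1 (log2 change 0.79, limma adjusted p = 0.0131), CNOT8 (0.56, limma adjusted p = 0.0296) and ATF4 (0.32, limma adjusted p = 0.0393). Each adjusted p was above 0.01. Over all genes, the 295 calls of this test became 1, 3 and 4 without INTS1-AID replicates 1, 2 and 3, so these calls are fragile.

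**Figure D5:**
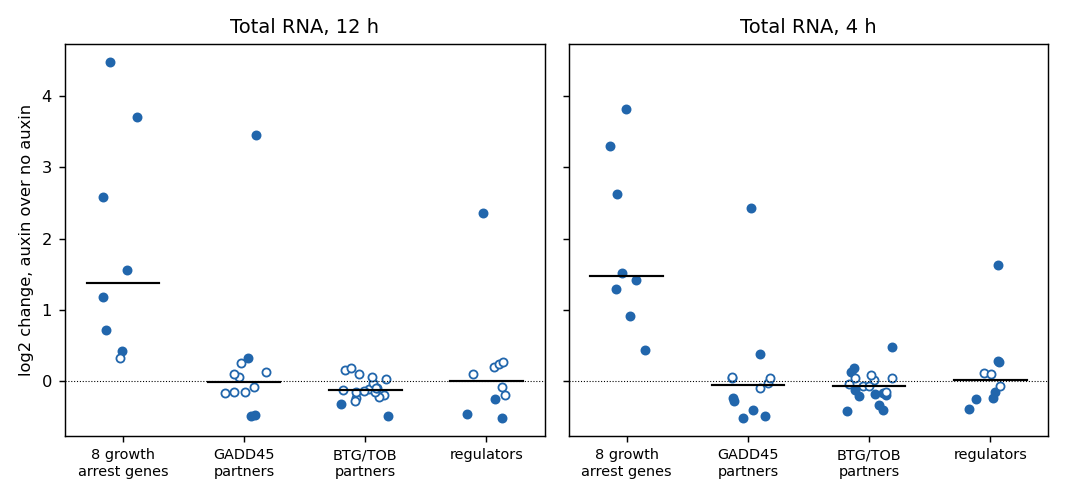
Deposited log2 changes, auxin over no auxin, at 12 h (left) and 4 h (right) of the 8 growth arrest genes, 12 GADD45 partners, 19 BTG/TOB partners and 10 regulators; each point is a gene, filled where the DESeq2 adjusted p is under 0.05, and lines are medians. The medians of the 8 genes are 1.37 and 1.47, and those of the other lists lie between -0.12 and 0.02.

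The genes nearest to each of the 8, by Euclidean distance over the log2 changes of the 4 auxin comparisons among 12771 protein-coding genes, were listed for each. In the authors' deposited table GADD45A was nearest to TRIM52 (distance 0.08) and SDC4 (0.14), and BTG3 to POU4F1 (0.07) and USP27X (0.08). TOB2 was nearest to TMCC2 (0.12) and NPTX1 (0.13), and BTG1 to TSSK6 (0.18) and LRRC46 (0.19), per the authors' deposited table. TOB1 was nearest to LHX2 (0.29) and CCNE2 (0.31), and BTG2 to SLC10A3 (0.27) and HEXIM1 (0.34), per the authors' deposited table. GADD45B was nearest to DLL4 (0.35) and HAP1 (0.65), and GADD45G to GPHA2 (0.52) and EGLN3 (0.62), per the authors' deposited table. Among the 8 themselves, GADD45A and BTG1 were the closest pair (0.50) and GADD45B and BTG3 the farthest (6.47), per the authors' deposited table. The points share their libraries, and these distances are a description.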

How the data were processed

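RNA of 17 HEK293T libraries was measured by stranded dUTP sequencing with 1 of 2 kits, per the labels' protocols. STAR 2.7.3a and DESeq2 are listed as tools, and hg38 and dm6 as builds, per the submitters' processing notes, without saying which step used which. No source used here gives the counting tool, its strand setting or the annotation. The signal values, normalized counts per gene, were deposited by the authors as such, per the file headers, and step in each library by 1 size factor; reads were recovered from the step of each library (100% whole within 0.001 reads). Log2 fold changes, fold changes (ratios), p-values and mean counts (scores, rounded to whole numbers) of each comparison were deposited by the authors, per the file headers, as was a standard error (score). Beside the untreated libraries, the comparison columns, with that standard error, are headed as 4 h TT-seq. They were read here as the comparison of the untreated lines. A log2 expression value per comparison (other) was used only to check arms and the 4 h direction. The depth of the auxin libraries is unknown.

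The 6 untreated libraries (replicates share numbers in the labels) were tested with limma 3.58.1 in R 4.3.3 (trend, robust) on log2(normalized count + 1), for genes with a mean of at least 10, at an FDR of 0.05. The script was tested on simulated data, with 97% of 200 genes of 2-fold change recovered among 13277. There all genes and libraries had the same dispersion, and the changed genes had a mean of at least 50. The real libraries spread unequally, so that share does not give the power of this test. For auxin, the authors' DESeq2 adjusted p had to be under 0.05. Differences used a Wald z test with standard errors implied by the deposited p-values (z of 38 where p is 0), with Benjamini-Hochberg adjustment; on the table with listed errors the largest relative deviation was 2.04e-12. The 4 h direction was checked against the log2 expression column, which matches the arm of 2 libraries (median error 0.0019). The 12 h and INTS1 directions rest on correlation with the 4 h log2 changes (r = 0.85 and 0.89). The INTS8 direction rests on correlation with the INTS1 log2 changes (r = 0.88), and its correlation with the 4 h ones had the same sign (r = 0.83). The implied levels without auxin of the INTS1 and INTS8 comparisons differed with an SD of 0.22 on the log2 scale, so the libraries are not all the same; any partly shared libraries would make that Wald test inexact.

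Members, lists and tests were chosen with earlier results of these data known. Named genes were the 8 members, per list and comparison the 2 largest rises and falls that passed, and 2 nearest genes a member. The values of 1 listed regulator are not reported here. Alternatives were pseudocounts of 0.1 and 10, no filter or a mean of at least 50, library totals, recovered reads with edgeR 4.0.16 or DESeq2 1.42.0, the replicate block, each library left out, an FDR of 0.01, a log2 change of at least 1 and centring. The authors' own test of the lines and the INTS8 ratio turned round were added after seeing the data. Promoters are from RefSeq (GRCh38.p14).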

Additional observations from a re-analysis of the deposited data

Results flagged for a closer look

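Each of these was flagged because the deposited log2 changes differed, by the test of the difference itself. The contrasts were 12 h against 4 h, and the loss of INTS8 against that of INTS1. The 12 h, INTS1 and INTS8 ratios were read as auxin over no auxin, which no label gives. Each time has its own libraries without auxin, so time and series cannot be told apart. The libraries of INTS8 and INTS1 are not all the same, so subunit and libraries cannot be told apart either. Between the times, the log2 change of GADD45B differed by 0.66 (Wald adjusted p = 0.00602) and that of TOB1 by -0.87 (Wald adjusted p = 3.96e-10), 12 h minus 4 h. In new RNA, INTS8 minus INTS1 with the INTS8 ratio read as auxin over no auxin, the log2 change differed by -1.55 for GADD45B (Wald adjusted p = 0.0308), by -1.12 for BTG2 (Wald adjusted p = 0.000157), by -0.71 for TOB1 (Wald adjusted p = 0.00594) and by -0.64 for TOB2 (Wald adjusted p = 0.0132). GADD45B and TOB1 appear in both. No values per library were available for these comparisons, so how many libraries show each direction is unknown.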

How the results depend on the processing

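All 8 genes kept their side of the threshold at 4 h in total RNA and after INTS1 loss in new RNA at an adjusted p under 0.01, and the 7 that passed at 12 h did so too. After INTS8 loss 5 passed at that threshold in place of 7 (GADD45G and TOB2 no longer did). With a log2 change of at least 1 as well, 3 of the 8 genes passed after INTS8 loss in place of 7, against 2.15% of all genes. At an FDR of 0.01, 2 genes differed between INTS8 and INTS1 in place of 4 (GADD45B and TOB2 no longer passed). For the auxin comparisons and the differences, the shares of all genes at 0.01 were not counted. Whether the 8 genes held up better than other genes there is unknown. With the INTS8 ratio turned round, chosen after seeing the data, 8 differed. Centring on the median of all genes changed no call; the near-zero difference of BTG3 between new and total RNA turned to 0.0016. Between the untreated lines, the count of the 8 genes called was 0 under every alternative but 1: leaving out 1 library gave 0 to 1, the 1 being GADD45B without Parental replicate 3. Values that did not pass changed sign for GADD45G (0.08 without INTS1-AID replicate 1 and 0.16 without Parental replicate 2, in a range of -0.25 to 0.16 with 1 library left out), BTG3 (-0.073 without Parental replicate 3, in a range of -0.073 to 0.19) and TOB1 (-0.0038 with library totals); the cause was not tested. GADD45G has no value with a mean of at least 50. Over all genes the count of 295 became 6 with the replicate block, 11 at an FDR of 0.01, 824 with DESeq2 on recovered reads (519 higher and 305 lower, against 246 higher and 49 lower with limma), and 1 to 2432 with 1 library left out: 1, 3 and 4 without INTS1-AID replicates 1, 2 and 3, and 1, 271 and 2432 without Parental replicates 1, 2 and 3. With the replicate block 0 of the 8 genes passed. Deviations of libraries with equal numbers had correlations of -0.07, 0.0040 and -0.11, and those with unequal numbers ran from -0.16 to 0.15. These values cannot tell whether equal numbers pair the samples. GADD45G, at 7 to 17 reads an untreated library, is the member most limited by depth.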
